A study of Mus musculus with 6 samples.

Results

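Phosphorylation of eIF2alpha is the switch through which mammalian cells slow protein synthesis under stress, and 10 genes upstream of or at this switch were followed here in SIRT1 KO and WT mESCs, mouse embryonic stem cells. They were chosen by name, as rows of a deposited expression table of 54352 genes, and all 10 were present and high enough to be tested. The SIRT1 KO mESCs carry a targeted deletion of Sirt1, an NAD-dependent protein deacetylase, and the WT mESCs are wild-type. The labels give male cells of the 129Sv/J strain for both genotypes, and all cultures were grown in ESGRO medium. Each genotype was sequenced in 3 libraries. The study's cell line section traces SIRT1 KO mESCs to gene targeting in the R1 line, without stating for the sequencing how many clones were used, so p-values measure the spread between libraries and not between independent deletions.

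In its GTP-bound form eIF2 brings the initiator tRNA to the ribosome, and after each round the exchange factor eIF2B reloads it with GTP. Each of the kinases HRI, PKR, PERK and GCN2 (Eif2ak1, Eif2ak2, Eif2ak3 and Eif2ak4) responds to a different stress and phosphorylates the alpha subunit, encoded by Eif2s1, which turns eIF2 from a substrate of eIF2B into its inhibitor. General translation then falls while the transcription factor ATF4 is made. A phosphatase built from PP1 and either GADD34 (Ppp1r15a) or CReP (Ppp1r15b) takes the phosphate off again. The table holds RNA levels, and phosphorylation of eIF2alpha is not analysed here.

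The deposited values are normalized read counts on the log2 scale, so that a difference of 1 means a doubling. Genotypes were compared with limma in 26571 genes whose linear values averaged 10 or more, and a gene was called at a Benjamini-Hochberg adjusted p under 0.01. Sirt1 itself averaged 13.74 ± 0.042 in SIRT1 KO and 15.51 ± 0.026 in WT libraries (SD, n = 3 for both). The pluripotent stem cell markers were all measured, and their summed level lay between 20.98 and 21.02 in SIRT1 KO libraries, against 20.97 to 21.03 in WT libraries. The summed levels of the other marker lists lay at 16.12 in all SIRT1 KO libraries, against 15.71 to 15.96 in WT libraries, for neural genes, at 14.19 to 14.29 against 14.19 to 14.27 for trophoblast, at 11.09 to 11.29 against 10.72 to 10.97 for primitive endoderm, and at 10.38 to 10.50 against 10.86 to 11.05 for fibroblasts. A sum leans on its more abundant markers, and calls within the lists were mixed. The neural sum mostly follows Tubb3, at a mean of 15.41. In the pluripotent list the most abundant marker, Dppa5a, averaged 18.53, well below the sum. Of 5 primitive endoderm genes 1 was higher and 2 were lower. Of 5 trophoblast genes, and of 4 tested neural genes, 1 was higher and 1 lower. Of 8 pluripotent stem cell markers, and of 3 tested fibroblast genes, 1 was lower and none higher. Neurog2, Lum and Dcn were too low to be tested. The part of these shifts in the results was not tested. WT replicate 2 lay farthest from its genotype's mean, with a root mean square deviation of 0.141 on the log2 scale against 0.0662 to 0.123 for the other libraries. In bulk RNA, fewer cells with a transcript and less transcript per cell cannot be told apart.

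Of the 10 genes, Ppp1r15a and Eif2b5 rose in SIRT1 KO mESCs, none fell, and 8 did not pass the test. The called genes thus belong to dephosphorylation of eIF2alpha and to nucleotide exchange on eIF2, and no kinase was called. Among all tested genes 8.47% were called higher and 8.12% lower, 16.6% in either direction, so 2 of 10 is a count that carries no statement about the set as a whole. These were 2251 higher and 2157 lower genes, against 3099 higher and 1718 lower ones when libraries were centred on their medians, which moved differences up by 0.06 and left the 2 calls as they were. The median difference of the 10 genes was 0.07 on the log2 scale, against -0.01 over all tested genes. The 2 genotypes were separated without overlap in 5 of them, 3 with SIRT1 KO libraries on the higher side and 2 on the lower side. Such a gap was present in 44.7% of all tested genes, 21.8% higher and 22.9% lower.

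**Figure D1:**
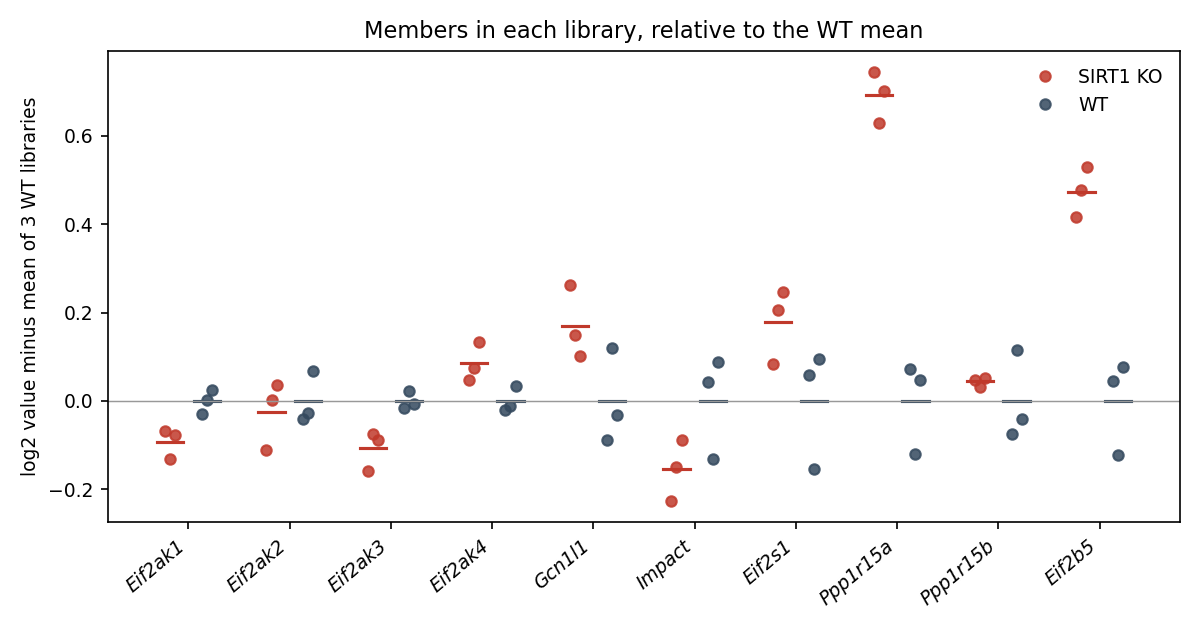
Log2 value of each of the 10 genes in each library minus the mean of the 3 WT libraries (vertical axis), with SIRT1 KO libraries to the left of WT libraries for each gene; points are libraries and bars are means. Ppp1r15a and Eif2b5 stand clear of the WT libraries, at mean differences of 0.69 and 0.47, whereas the 4 kinases stay between -0.11 and 0.09.

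Ppp1r15a (ENSMUSG00000040435.12) encodes GADD34, the stress-induced regulatory subunit that directs PP1 to eIF2alpha. On GRCm38 it occupies bases 45522916 to 45526268 of chromosome 7, minus strand. It was at 14.83, 14.71 and 14.79 in SIRT1 KO libraries 1 to 3, against 14.16, 13.96 and 14.13 in WT libraries 1 to 3. Every SIRT1 KO library was above every WT library, with a gap of 0.56 between the groups. The log2 difference was 0.69 (SE 0.065, adjusted p = 8.71e-05 from limma), a 1.62-fold higher level with a 95% confidence interval of 1.46 to 1.79. A larger rise was seen for 461 of the 26571 tested genes. The call held under every alternative run, with adjusted p from 7.31e-06 to 0.00122.

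Ppp1r15b encodes CReP, the subunit that serves the same phosphatase in unstressed cells. It was at 16.24, 16.22 and 16.24 in SIRT1 KO libraries, against 16.12, 16.31 and 16.15 in WT libraries. The SIRT1 KO values sat inside the WT range, and the difference was 0.04 (95% confidence interval -0.09 to 0.18, adjusted p = 0.624 from limma). Within each library Ppp1r15a was below Ppp1r15b, by a log2 difference that averaged -1.46 ± 0.049 in SIRT1 KO and -2.11 ± 0.21 in WT libraries (SD, n = 3 for both). This difference of differences, 0.65, does not depend on how libraries are scaled to each other, and the genotypes did not overlap in it (two-sided exact permutation p = 0.10, which no set of 3 and 3 libraries can undercut). The balance of the 2 RNAs thus moved towards Ppp1r15a in SIRT1 KO libraries, though Ppp1r15b stayed the more abundant per length of annotated exon.

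The 250 bases before the RefSeq start sites of both called genes (GRCm38.p6) are shown because these genes rose and the promoters could be searched for motifs that stress-activated transcription factors of the ATF and C/EBP families are known to bind. The promoter of Ppp1r15a lies at chr7:45526269-45526518 on the minus strand and that of Eif2b5 at chr16:20498567-20498816 on the plus strand, both written 5′ to 3′. Capitals mark a match to the cAMP response element TGACGTCA, a palindrome that reads the same on both strands.
Ppp1r15a: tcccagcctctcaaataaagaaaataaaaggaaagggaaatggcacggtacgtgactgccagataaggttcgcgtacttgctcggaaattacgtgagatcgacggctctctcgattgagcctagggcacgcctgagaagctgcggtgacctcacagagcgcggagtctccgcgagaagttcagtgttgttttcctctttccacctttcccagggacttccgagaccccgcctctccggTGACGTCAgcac
Eif2b5: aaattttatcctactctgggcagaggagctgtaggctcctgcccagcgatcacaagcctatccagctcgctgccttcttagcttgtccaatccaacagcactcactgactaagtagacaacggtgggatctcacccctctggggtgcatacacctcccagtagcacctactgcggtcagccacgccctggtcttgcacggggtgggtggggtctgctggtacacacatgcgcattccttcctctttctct
The element lies 12 to 5 bases before the start site of Ppp1r15a. It was found in 1.55% of 32851 promoter windows of this length over all genes and in no other of the 9 windows that matched 8 of the 10 genes. Ppp1r15b had no window, so its promoter was not searched. Neither the C/EBP-ATF response element TTGCATCA, present in 0.791% of all windows, nor the ER stress response element (ERSE), present in 0.113%, was found in any of the 9 windows on either strand. These motifs were chosen with the expression values known. A match in a promoter is a description of its letters.

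Eif2b5 (ENSMUSG00000003235.13) encodes the epsilon subunit of eIF2B, which holds the catalytic centre for nucleotide exchange. It lies on the plus strand of chromosome 16, from 20498817 to 20509323. Its values were 17.22, 17.28 and 17.34 in SIRT1 KO libraries, against 16.85, 16.68 and 16.88 in WT libraries. The groups were separated by 0.34. The log2 difference of 0.47 (SE 0.0645, adjusted p = 0.000729 from limma) corresponds to a 1.39-fold higher level (95% confidence interval 1.25 to 1.54). Larger rises were seen for 1112 tested genes. The adjusted p ran from 5e-05 to 0.00714 over all alternatives, so the call was kept in each.

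Eif2s1, the substrate of all the kinases, gave a smaller and less even difference. It was at 16.84, 16.96 and 17.01 in SIRT1 KO libraries, against 16.82, 16.61 and 16.86 in WT libraries. The ranges touched, since SIRT1 KO replicate 1 lay below WT replicate 3, and the difference of 0.18 (95% confidence interval 0.0055 to 0.35) did not pass (adjusted p = 0.116 from limma). Eif2b5 exceeded Eif2s1 within a library by 0.34 ± 0.032 in SIRT1 KO and 0.05 ± 0.028 in WT mESCs (SD, n = 3 for both). The change in this ratio was 0.30, with no overlap between genotypes (two-sided exact permutation p = 0.10). Both genes dipped in WT replicate 2, and the ratio, with both SDs under those of either gene alone, did not.

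The other subunits of eIF2B did not follow Eif2b5 to the same extent. Eif2b1, Eif2b2, Eif2b3 and Eif2b4, which encode the alpha to delta subunits, had differences of 0.07, -0.15, 0.24 and 0.18, and none was called (adjusted p from 0.0158 for Eif2b3 to 0.429 for Eif2b1 from limma). In each library Eif2b5 was compared with the mean log2 value of these 4 genes, a comparison added after their values were seen. It stood above them by 2.33, 2.37 and 2.42 in SIRT1 KO libraries, against 2.01, 1.97 and 1.98 in WT libraries. The excess grew by 0.39 in SIRT1 KO mESCs, without overlap (two-sided exact permutation p = 0.10). Per kilobase of annotated exon, Eif2b5 RNA was the most abundant of the subunits in both genotypes, at 61396 ± 2414 in SIRT1 KO and 44264 ± 3216 in WT mESCs on the linear normalized scale (SD, n = 3 for both). Eif2b1 was at 17712 ± 363 in SIRT1 KO and 16871 ± 1258 in WT mESCs on that scale. Eif2b3 had the lowest level of the 5 genes, at 3160 ± 164 in SIRT1 KO and 2666 ± 124 in WT mESCs. Its annotated exons, merged over all transcripts, cover 6520 bases, against 1885 to 2599 for the other genes, which lowers its level on this scale. Before division by length the log2 mean of Eif2b3 was 14.33 in SIRT1 KO and 14.08 in WT libraries, against 14.51 and 14.66 for Eif2b2.

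**Figure D2:**
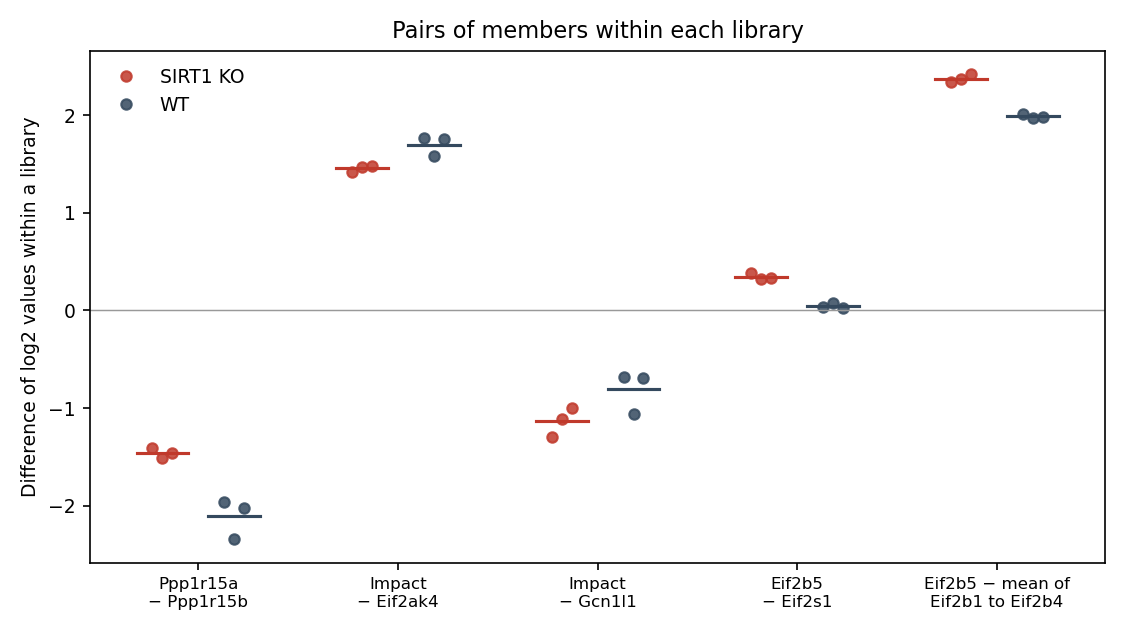
Difference of the log2 values of 2 genes within the same library (vertical axis) for 5 pairs, with SIRT1 KO libraries to the left of WT libraries; points are libraries and bars are means. The genotypes do not overlap for any pair except Impact minus Gcn1l1, and the largest shift is 0.65 for Ppp1r15a minus Ppp1r15b.

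None of the kinase genes changed by more than 0.11 on the log2 scale or passed the test. Eif2ak1 encodes HRI, which senses heme shortage and mitochondrial stress. Its values were 14.24, 14.18 and 14.23 in SIRT1 KO libraries, against 14.28, 14.31 and 14.34 in WT libraries. The SIRT1 KO values were the lower ones throughout, by 0.09 on average (95% confidence interval -0.20 to 0.018, adjusted p = 0.196 from limma). Eif2ak2, whose product PKR is activated by double-stranded RNA, was at 13.55, 13.67 and 13.70 in SIRT1 KO libraries, against 13.62, 13.64 and 13.73 in WT libraries. These ranges overlapped in part, at a difference of -0.02 (95% confidence interval -0.16 to 0.11, adjusted p = 0.802), the sign of which turned with median centring of the libraries (0.03).

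Eif2ak3 encodes PERK, the kinase of the endoplasmic reticulum that responds to unfolded proteins. It was at 13.73, 13.82 and 13.80 in SIRT1 KO libraries, against 13.88, 13.92 and 13.89 in WT libraries. The groups were separated by 0.06 only, and the difference was -0.11 (95% confidence interval -0.22 to 0.0065, adjusted p = 0.148 from limma). Eif2ak4, whose product GCN2 binds uncharged tRNA when amino acids are scarce, was the only kinase gene with higher values in SIRT1 KO libraries, at 14.09, 14.11 and 14.17, against 14.02, 14.03 and 14.07 in WT libraries. Its difference was 0.09 (95% confidence interval -0.03 to 0.20, adjusted p = 0.241). No kinase interval reached beyond 0.22 in size on the log2 scale.

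GCN2 is held ready by GCN1 (Gcn1l1), which it must bind to be activated on the ribosome, and IMPACT, the product of a gene imprinted in the mouse and expressed from the paternal copy, competes for GCN1. Gcn1l1 was at 16.80, 16.69 and 16.64 in SIRT1 KO libraries, against 16.45, 16.66 and 16.51 in WT libraries. Impact was at 15.51, 15.58 and 15.65 in SIRT1 KO libraries, against 15.78, 15.60 and 15.82 in WT libraries. For both genes WT replicate 2 lay within or next to the SIRT1 KO range, while WT replicates 1 and 3 lay apart from it. The differences, 0.17 for Gcn1l1 (95% confidence interval 0.015 to 0.33) and -0.15 for Impact (-0.31 to 0.0013), were not called with all libraries (adjusted p = 0.0976 and 0.13 from limma). Without WT replicate 2 both passed, Gcn1l1 as higher (0.23, adjusted p = 0.00577) and Impact as lower (-0.22, adjusted p = 0.00559). Leaving out that library also raised the calls over all tested genes, from 4408 to 5463. Over all alternatives the adjusted p ran from 0.00577 to 0.348 for Gcn1l1 and from 0.00559 to 0.34 for Impact.

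Impact exceeded Eif2ak4 within a library by 1.42, 1.47 and 1.47 in SIRT1 KO libraries, against 1.76, 1.58 and 1.75 in WT libraries. Impact RNA was thus lower relative to Eif2ak4 RNA in every SIRT1 KO library, by 0.24 on average (two-sided exact permutation p = 0.10), though neither gene was called. Relative to Gcn1l1, Impact averaged -1.13 ± 0.15 in SIRT1 KO and -0.81 ± 0.22 in WT libraries (SD, n = 3 for both), with overlapping values (two-sided exact permutation p = 0.20). Including the comparison within eIF2B, 5 ratios were examined, and none could reach 0.05 with 3 libraries per genotype.

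Corrected for the length of annotated exons, the genes kept nearly the same order in both genotypes. This length merges the exons of all annotated transcripts of a gene, whether or not they are used in these cells, and the order of the genes depends on it. Eif2b5 was highest, followed by Eif2s1 at 25391 ± 1474 per kilobase in SIRT1 KO and 22475 ± 2046 in WT mESCs, Ppp1r15b at 13800 ± 103 in SIRT1 KO and 13403 ± 959 in WT mESCs, and Impact at 9559 ± 457 in SIRT1 KO and 10653 ± 839 in WT mESCs (SD, n = 3 for all). Ppp1r15a, at 9559 ± 380 in SIRT1 KO and 5923 ± 423 in WT mESCs, could not be told from Impact in SIRT1 KO libraries, whereas in WT libraries it lay below Impact and overlapped Gcn1l1, which was at 5368 ± 406. The kinases were the lowest of the set. Eif2ak1 led them at 3363 ± 80 in SIRT1 KO and 3585 ± 68 in WT mESCs. Eif2ak2, Eif2ak3 and Eif2ak4 lay between 2344 and 2499 in SIRT1 KO and between 2257 and 2541 in WT mESCs. Neighbours among these overlapped in SIRT1 KO libraries, and in WT libraries Eif2ak2 overlapped Eif2ak3 while Eif2ak4 was below both.

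**Figure D3:**
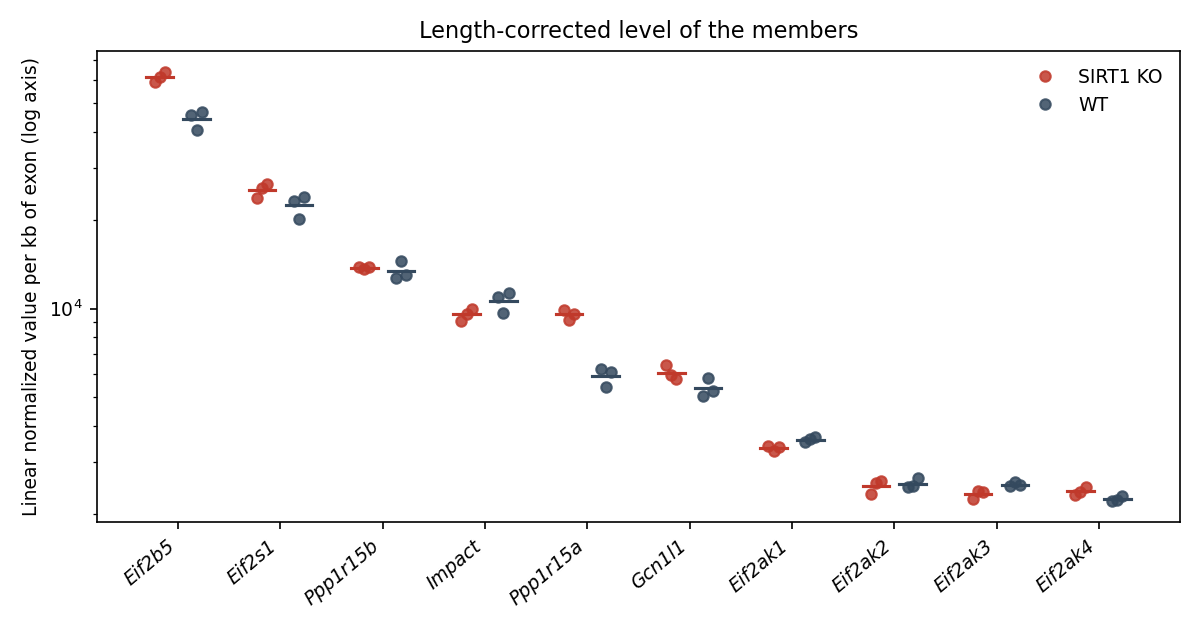
Linear normalized value per kilobase of annotated exon (vertical, log axis) for the 10 genes in order of their WT mean, with SIRT1 KO libraries to the left of WT libraries; points are libraries and bars are means. Eif2b5 is at the top at 61396 in SIRT1 KO and 44264 in WT mESCs, and the kinase genes are at the bottom, at 3585 or less.

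The chromosomal surroundings of the genes were examined with the values known. Eif2ak3 lies on the plus strand of chromosome 6, from 70844515 to 70905245, at the edge of a stretch in which most genes were lower in SIRT1 KO mESCs. Of the 34 tested protein-coding genes from Thnsl2, which starts 0.284 Mb after the start of Eif2ak3, to the last one within 5 Mb, at 2.4 Mb, 26 were lower, 1 was higher and 7 were not called, with a median difference of -0.64. Among all tested protein-coding genes 11.3% were lower. Of the 8 tested genes on the other side, from 5 Mb before Eif2ak3 up to its neighbour Foxi3, none was called, and their median was 0.09. Rpia, a pentose phosphate pathway enzyme next to Eif2ak3, was at 0.20 and Foxi3 at 0.22, whereas Thnsl2 was at -0.68 and Smyd1, a muscle methyltransferase, at -1.43. Eif2ak3 itself was at -0.11 and not called.

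Ppp1r15a sits in a gene-dense stretch where most neighbours were also higher. Of the 10 nearest tested protein-coding genes, which span 0.163 Mb, 7 were higher and none was lower, with a median difference of 0.34, while 12.4% of all tested protein-coding genes were higher. Among them were Fut1, a fucosyltransferase (1.11), Ftl1, the ferritin light chain (0.63), Nucb1, a calcium-binding protein of the Golgi (0.49), and Bcat2, the mitochondrial branched-chain aminotransferase (0.43), whereas Bax, a promoter of apoptosis, was at -0.23 and did not pass. Ppp1r15a had a larger rise than every neighbour other than Fut1. Within 1 Mb on each side, 19 of 94 genes were higher, 7 were lower and the median was 0.06. The part of the surroundings in the rise of Ppp1r15a was not tested. Around Eif2b5, 3 of the 10 nearest genes were higher and none was lower, at a median of 0.11, and around the other genes the medians of the 10 nearest lay between -0.15 for Ppp1r15b and 0.11 for Eif2ak1.

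**Figure D4:**
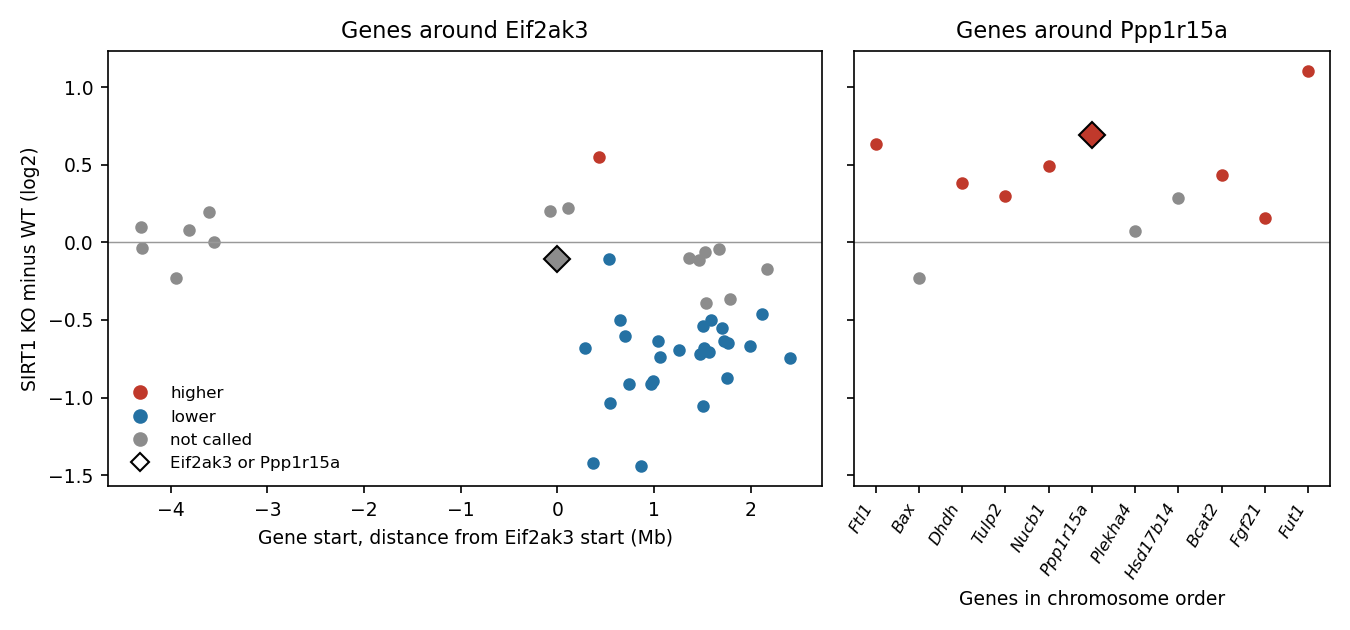
Difference between SIRT1 KO and WT mESCs on the log2 scale (vertical axis) for tested protein-coding genes within 5 Mb of Eif2ak3, by distance between starts (left), and for the 10 genes nearest to Ppp1r15a, in chromosome order (right); each point is a gene, coloured by its call, and the diamonds are Eif2ak3 and Ppp1r15a. Eif2ak3 at -0.11 stands before a run of 34 genes with a median of -0.64, and 7 of the 10 genes around Ppp1r15a were higher.

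Of 9 genes that act on the kinases, 4 were higher and 1 was lower, where 8.47% of all tested genes were higher and 8.12% lower, and the median difference was 0.27. Prkra, which encodes the PKR activator PACT, rose to 12.53, 12.42 and 12.60 in SIRT1 KO libraries, against 11.70, 11.62 and 11.91 in WT libraries (log2 difference 0.77, SE 0.0872, adjusted p = 0.000251 from limma). Dele1 relays mitochondrial stress to HRI. It was at 14.78, 14.82 and 14.88 in SIRT1 KO libraries, against 14.22, 14.12 and 14.30 in WT libraries (0.62, SE 0.0604, adjusted p = 0.000111). Dnajc3, the cochaperone p58IPK that inhibits PERK and PKR, was higher by 0.34 (adjusted p = 0.000768), and Abcf3, a relative of the yeast GCN2 coactivator Gcn20, by 0.32 (adjusted p = 0.00174).

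Each SIRT1 KO library lay above each WT library for Prkra, Dele1, Dnajc3 and Abcf3, as in 21.8% of all tested genes. Abcf3 is also among the 10 genes nearest to Eif2b5. Nck1, an adaptor that has been linked to eIF2alpha dephosphorylation and PERK, was the lower one, at -0.35 (adjusted p = 0.00193 from limma). Without SIRT1 KO replicate 2, and likewise without SIRT1 KO replicate 3, the calls of Abcf3 and Nck1 were lost and 3 genes remained called, while those of Prkra, Dele1 and Dnajc3 held under every alternative. The mitochondrial protease Oma1, which cleaves DELE1, was at -0.17 (adjusted p = 0.0858), Hspa5, the chaperone BiP that binds PERK, at 0.27 (adjusted p = 0.0146), and Tarbp2, which restrains PKR, at -0.01 (adjusted p = 0.954).

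Of 11 further genes of eIF2, eIF2B and the eIF2 cycle, 3 were higher and none was lower, with a median of 0.18. Over all tested genes 8.47% were higher and 8.12% lower. Eif2s3x, the X-linked gamma subunit of eIF2, was at 0.29 (adjusted p = 0.00324 from limma), Eif5, which triggers GTP hydrolysis on eIF2, at 0.32 (adjusted p = 0.00549), and Cdc123, which assembles eIF2, at 0.27 (adjusted p = 0.00862). These calls were lost in several fits without 1 library. Their differences stayed positive throughout, at 0.20 to 0.35 for Eif2s3x, 0.24 to 0.39 for Eif5 and 0.22 to 0.32 for Cdc123. The call of Eif5 was also lost with quantile normalization and without the mean-variance trend. That of Cdc123 was also lost without the filter, without the trend and with a block on replicate number (adjusted p = 0.0122 from limma). None of the 11 genes was called without SIRT1 KO replicate 1, 2 or 3 or without WT replicate 1, and 1 was called without WT replicate 3. Calls over all tested genes fell in these fits too, to between 2489 and 3917, against 4408 with all libraries. Eif2s3x has a closely similar copy on the Y chromosome, Eif2s3y (0.11, adjusted p = 0.242), and the sources used here do not state how reads shared by the copies were counted. Eif2s2, the beta subunit, was at 0.28 and did not pass (adjusted p = 0.0135). The 3 genes of the PP1 catalytic subunits were not called, with Ppp1ca at 0.23 (adjusted p = 0.025), Ppp1cb at 0.12 (adjusted p = 0.131) and Ppp1cc at 0.08 (adjusted p = 0.38).

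Among 5 genes of the other arms of the unfolded protein response, Atf6, a membrane-bound transcription factor that is cut and released under stress, was higher (0.39, SE 0.0609, adjusted p = 0.00163 from limma), a call lost without SIRT1 KO replicate 2 (adjusted p = 0.0127) or 3. Its relative Atf6b was at 0.17 (adjusted p = 0.0937), Xbp1, the mRNA that IRE1 splices, at -0.11 (adjusted p = 0.204), and Ern1, the gene of IRE1, at -0.04 (adjusted p = 0.813). Downstream of the switch, 15 of 16 genes in a list of ATF4 and its targets were higher and none was lower, where 8.47% of all tested genes were higher and 8.12% lower. The median of the list was 0.97, against 0.07 for the 10 upstream genes. This list was chosen with earlier results of these data known, so its count and median are descriptions and not a test. Atf4 itself was at 1.18, Ddit4, an inhibitor of mTORC1, at 1.70, Chac1, which degrades glutathione, at 1.60, and Vldlr, a lipoprotein receptor, at 2.35 (adjusted p from 7.51e-07 to 6.16e-06 from limma for these 4). At the low end were Asns (0.36) and Psat1 (0.29), whose calls were lost without SIRT1 KO replicate 1, 2 or 3 or WT replicate 1, where 13 genes were called. Cebpg, at 0.20, was not called (adjusted p = 0.0237 from limma). Ppp1r15a is itself known as a target of ATF4. Its difference of 0.69 was above that of Mthfd2 (0.63) and below that of Phgdh (0.86) in this list, which ran from 0.20 to 2.35. The part of ATF4 in the rise of Ppp1r15a was not tested.

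**Figure D5:**
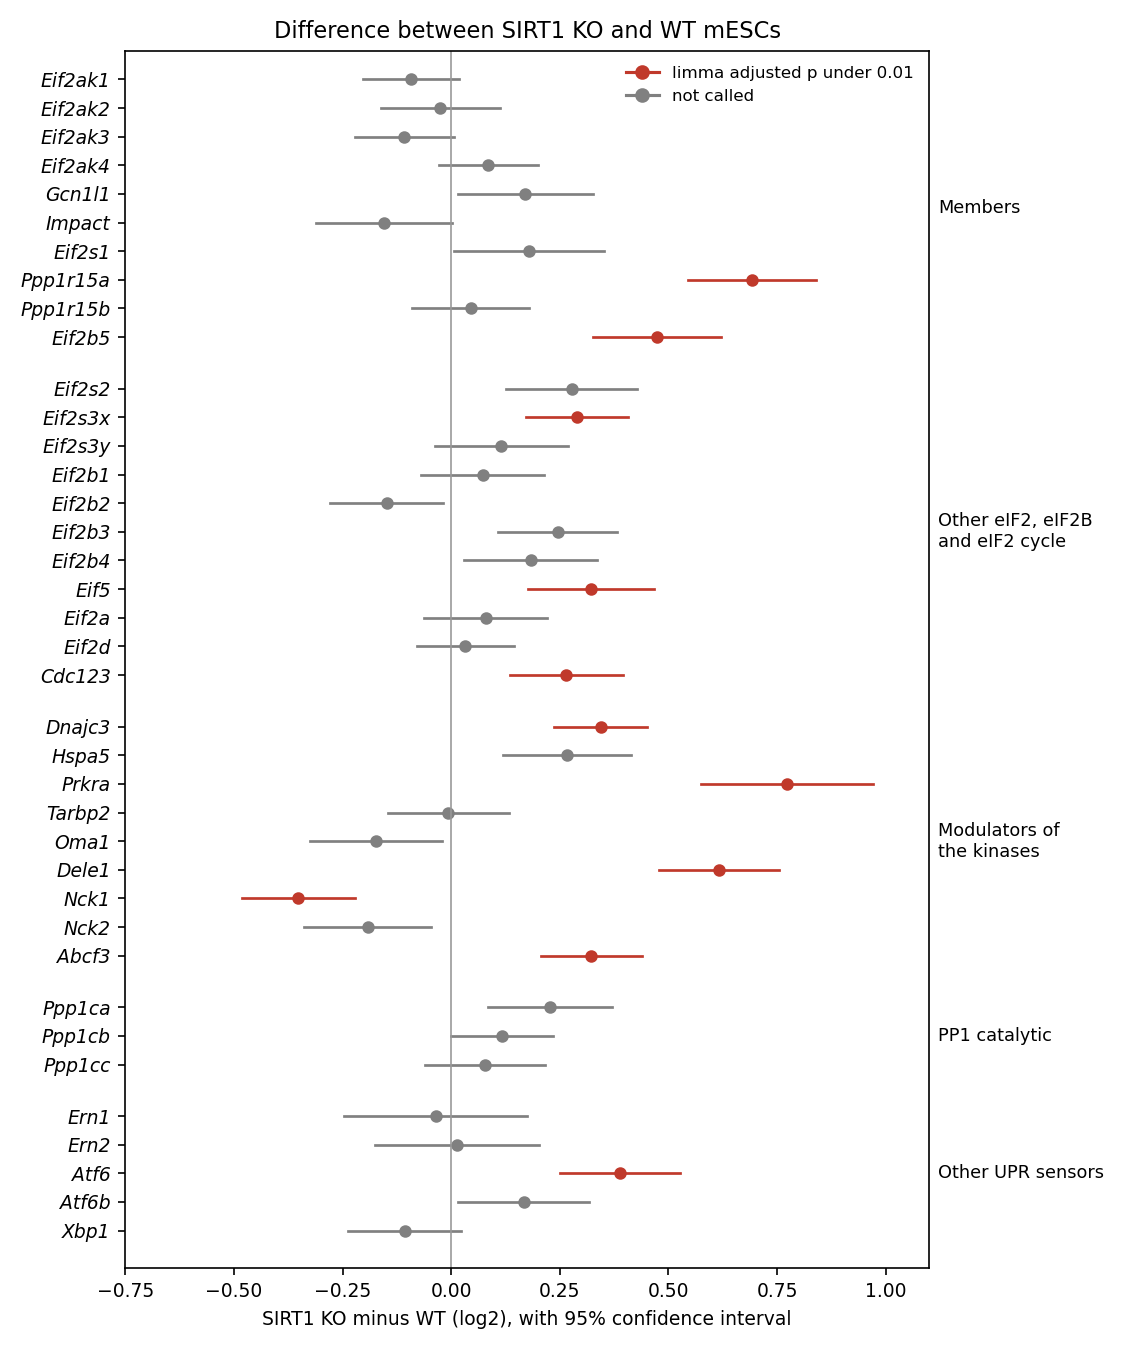
Difference between SIRT1 KO and WT mESCs on the log2 scale (horizontal axis) with its 95% confidence interval from limma for the 10 genes and for 4 related lists; each row is a gene, red marks an adjusted p under 0.01, and UPR stands for unfolded protein response. Ppp1r15a, Eif2b5, Prkra and Dele1 have the largest differences among the plotted genes, from 0.47 to 0.77, and the intervals of the 4 kinase genes all include 0.

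By correlation over the 6 libraries, the tested genes most like Ppp1r15a were Vill (r = 0.9999), Fkbp10 (r = 0.9997) and Mlst8 (r = 0.9992). With 6 libraries in 2 genotypes such values are common, and 1918 genes had a correlation with Ppp1r15a of at least 0.95. Exons of Eif2ak4, Eif2s1, Eif2b5 and Impact share no base with another annotated gene. Those of the other members overlap other genes. The largest overlap with 1 gene was 7 bases for Gcn1l1 and 12 bases for Ppp1r15a (with Tulp2 on the opposite strand). It was 174 to 640 bases for Eif2ak2, Eif2ak3, Eif2ak1 and Ppp1r15b. The sources used here do not state a strand setting for the counting, so such reads could come from either gene.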

How the data were processed

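RNA-seq of 3 SIRT1 KO and 3 WT mESC libraries was used. The authors trimmed adaptors with Trim Galore, aligned reads to GRCm38 with STAR and a Gencode annotation, obtained gene counts from featureCounts and used DESeq2 for normalization, and the deposited values are on the log2 scale. The methods also name RSEM for expression values. The transformation behind the log2 values is not stated. The series text describes ribosomal RNA depletion and sequencing to about 520 M reads a library, whereas the sample labels describe poly(A) enrichment. The depth behind a value is otherwise unknown, and no count test was run.

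Differences were fitted in R 4.3.3 with limma 3.58.1 (mean-variance trend, Benjamini-Hochberg adjustment over 26571 genes averaging 10 or more in linear units, threshold 0.01). The steps were tested on simulated data. Differences within a library were compared by exact permutation over 20 splits. Positions and exon lengths come from GENCODE vM21 (GRCm38), in which 98.7% of names matched 1 gene. Promoter windows come from RefSeq (GRCm38.p6), 250 bases before each start.

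Deviations from the genotype means correlated weakly between same-numbered libraries (correlations of 0.242, 0.149 and 0.316 over tested genes). SIRT1 KO replicate 2 and WT replicate 3 were also positively correlated (0.084). Deviations cancel out within a genotype, so these values cannot settle whether the libraries were paired. The main fit left the replicate number out, and it was used as a block in an alternative fit. The sources used here do not say what it stands for. Other alternatives were quantile normalization, median centring, no filter and a filter at a mean of 100, a pseudocount of 10, no trend, robust moderation, a threshold of 0.05, and leaving out each library.

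The genes, the lists and the tests were chosen with earlier results of these data known. Named are the 10 genes, per list up to 4 genes by smallest adjusted p, Sirt1, and the 3 genes most correlated with the member that rose most. List genes beyond this rule, the chromosomal neighbours, the motifs and the comparison of Eif2b5 with the other eIF2B genes were chosen after their values were seen.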

Additional observations from a re-analysis of the deposited data

How the results depend on the processing

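Ppp1r15a and Eif2b5 were called higher under each alternative, with log2 differences of 0.63 to 0.75 and of 0.38 to 0.53. Eif2ak2 changed sign with median centring (0.032), and without 1 library its difference ran from -0.055 to 0.019, positive without SIRT1 KO replicate 1 or WT replicate 3. Ppp1r15b was at -0.037 after quantile normalization. Without 1 library, Impact ran from -0.22 to -0.11 and Gcn1l1 from 0.13 to 0.23, and both were called only without WT replicate 2, where 4 of the 10 genes were called, against 2 without any other library. The other calls of the 10 genes, and that of Sirt1, stayed on their side of the threshold. Of the eIF2, eIF2B and eIF2 cycle genes, 5 were called at a threshold of 0.05, 5 with median centring and 1 without the trend, and 0 to 4 without 1 library. The modulators of the kinases had 3 to 6 calls without 1 library, the unfolded protein response sensors 0 to 1, and ATF4 and its targets 13 to 15. Of the PP1 genes 1 was called at 0.05. Over all genes, 7566 were called at 0.05 and 2489 to 5463 without 1 library, against 4408. The lowest counts, 2489 and 2533, came without SIRT1 KO replicates 2 and 3. The highest, 5463, came without WT replicate 2, the library without which Impact and Gcn1l1 were called. Median centring moved differences up by 0.06 and gave 3099 higher and 1718 lower genes, against 2251 and 2157. With the replicate number as a block, 2041 genes were higher and 2079 lower, Ppp1r15a and Eif2b5 kept adjusted p of 7.86e-05 and 0.00102, and of the listed genes only Cdc123 lost its call (adjusted p = 0.0122). The 5 differences within a library kept their signs. In that block, a sign-flip test of 3 pairs cannot go below 0.25. The transformation of the deposited values and 3 libraries per genotype limit how small a difference can be called. The cause of these shifts was not tested.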
